A study of Arabidopsis thaliana with 20 samples.

Results

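The peaks described here are the 393 stretches of chromatin-associated RNA with an N6-methyladenosine (m6A) signal whose midpoint lay in a window around a centromere of Arabidopsis thaliana. The windows ran from 11 to 18 Mb on chromosome 1, 1 to 8 Mb on chromosome 2, 9.5 to 17.5 Mb on chromosome 3, 1 to 7 Mb on chromosome 4 and 8.5 to 16 Mb on chromosome 5, which is 35.5 Mb in all. The members were chosen by position alone, from 2291 peaks, of which 2247 were nuclear, so they made up 17.5% of the nuclear peaks. The other 1854 nuclear peaks served for comparison. The peaks came from MeRIP-seq (sequencing of RNA pulled down with an antibody against m6A) of the chromatin-associated RNA of whole seedlings aged 10 days. There were 5 genotypes in the Col-0 strain, with 2 immunoprecipitated (IP) and 2 input libraries each. Overexpression (OE) lines carried human ALKBH5, an m6A demethylase, as del-cIDR (the enzyme without the segment the labels call cIDR), as FL (full length), as del-cIDR H204A (here inactive del-cIDR) or as FL H204A (here inactive FL), and untransformed Col-0 was the control. The labels name neither the promoter that drives the transgene nor the number of independent lines, so a difference between genotypes may also be a difference between single lines.

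In Arabidopsis the centromeres are arrays of satellite repeats in which the histone variant CENH3 marks the site of the kinetochore. They are flanked by pericentromeric heterochromatin, rich in transposons and pseudogenes and poor in active genes, which is kept silent by DNA methylation, by methylated lysine 9 of histone H3 and by linker histones. m6A is placed on plant RNA by a methyltransferase complex that includes MTA, MTB, FIP37 and VIR, is found mostly near the 3′ ends of messenger RNAs, and is removed by ALKBH9B and ALKBH10B.

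All m6A levels are the authors' deposited ratios, scaled so that the m6A spike-in had the value 10.579 in every IP library. The sequencing depth behind them is unknown. The labels do not say what separates the 2 libraries of a group. A p-value here therefore measures no more than the spread between these samples, and that spread may be technical. For m6A the test took this spread from peaks of like level, so the standard error hardly followed a peak's own 2 libraries. It was 0.577 for Chr3:12670158-12670493, with 22.2 and 7.25 in FL. For Chr5:13742133-13742589, with 13 and 17.7 in FL, it was also 0.577. How reads that match several places were treated is not given in the sources used here, and many of these peaks lie on repeated sequence (pseudogenes, ribosomal RNA genes, and the stretch of chromosome 2 that resembles mitochondrial DNA), so that signal may be shared between copies. Among the members, 29 overlapped another member in position. All 11 tissue markers looked up, from leaf mesophyll to root hair and with the seed storage gene CRA1 among them, had signal in every input library. The signal was low for some, down to 12.7 for EXP7 (root hair) and 17.3 for CASP1 (endodermis). In whole seedlings, fewer cells of a type and less RNA per cell cannot be told apart. Levels of the human transgene were not analysed here.

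Peaks around the centromeres lay less often on protein-coding genes and more often on pseudogenes or outside genes than the other nuclear peaks. Of the 393 peaks, 251 (63.9%) lay on a protein-coding gene, against 1693 (91.3%) of the other nuclear peaks. Pseudogenes carried 42 peaks (10.7%), against 10 (0.539%) elsewhere. No gene of the RefSeq table covered 73 (18.6%), against 38 (2.05%) elsewhere. The remaining peaks around the centromeres were 13 on non-coding RNA genes and 14 on 2 or more genes. Density differed between chromosomes: the window on chromosome 4 held 15.5 peaks per Mb and that on chromosome 1 held 8.29 per Mb. On chromosome 1 nearly all peaks, 57 of 58, lay on protein-coding genes.

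The mix changed with the distance from the window midpoint. Within 1 Mb of the midpoint there were 106 peaks, 54 of them in no gene, 16 on pseudogenes and 27 on protein-coding genes. Between 1 and 2 Mb there were 85 peaks, 10 in no gene, 17 on pseudogenes and 55 on protein-coding genes. From 2 Mb to the window border there were 202 peaks, of which 169 lay on protein-coding genes. Over the 5 windows together, this outer band had 83.7% of its peaks on protein-coding genes, 4.46% on pseudogenes and 4.46% in no gene, against 91.3%, 0.539% and 2.05% of the other nuclear peaks.

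**Figure D1:**
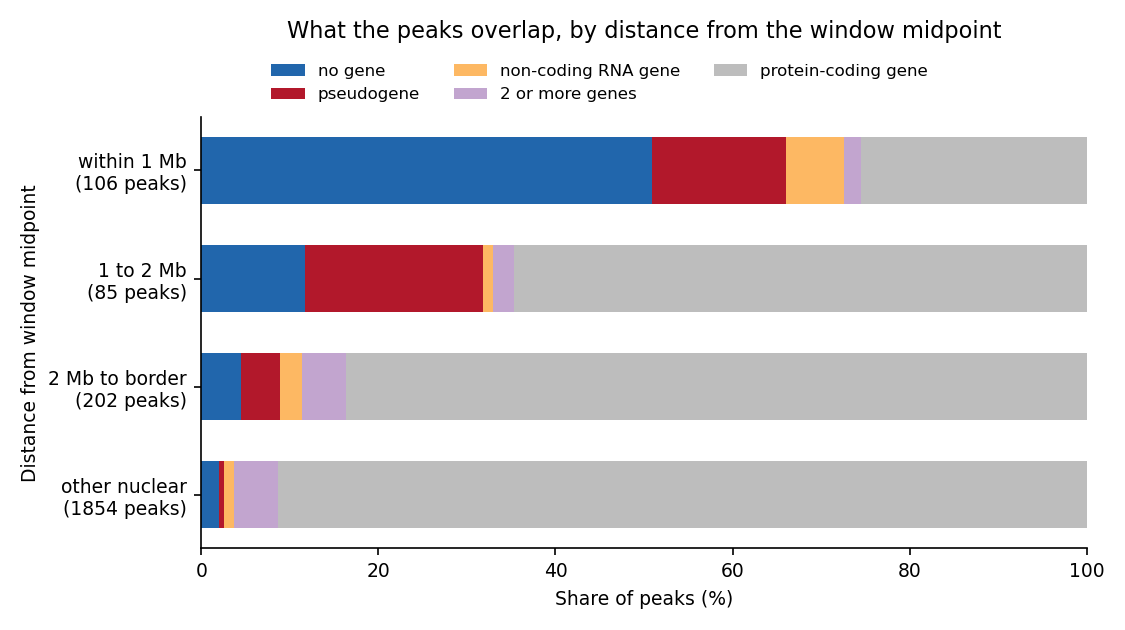
Share of peaks (%, horizontal axis) that overlap no gene, a pseudogene, a non-coding RNA gene, 2 or more genes or a protein-coding gene, for 3 distances from the window midpoint and for the other nuclear peaks (rows). Peaks in no gene are 54 of 106 within 1 Mb and 9 of 202 from 2 Mb to the border.

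The peaks also differed in shape and place. Their median width was 330 bases, against 288 bases for the other nuclear peaks, and 38 (9.67%) were wider than 1000 bases, against 26 (1.40%). Of the 38 wide peaks, 22 lay on pseudogenes and 9 in no gene. On protein-coding genes, 197 of 251 peaks (78.5%) lay in the outer 20% of the gene at one of its ends, against 1513 of 1693 (89.4%) elsewhere. On pseudogenes this held for 20 of 42 peaks (47.6%). Peaks also came in groups: 142 of the 393 belonged to 27 runs of 3 or more peaks with gaps of at most 20 kb.

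The m6A level around the centromeres was lower than Col-0 in all 4 ALKBH5 lines. The median over the 393 peaks was 2.43 and 1.65 in the 2 del-cIDR libraries, 2.51 and 4.09 in FL, 2.23 and 3.92 in inactive del-cIDR, 2.85 and 3.08 in inactive FL, and 6.07 and 6.22 in Col-0. None of the 8 transgenic libraries reached either Col-0 library, while the 4 lines overlapped one another except that both del-cIDR libraries lay below both of FL and of inactive FL. As means the medians were 2.04 ± 0.554 in del-cIDR, 3.30 ± 1.12 in FL, 3.08 ± 1.2 in inactive del-cIDR, 2.96 ± 0.167 in inactive FL and 6.14 ± 0.109 in Col-0 (SD, n = 2 each). The median of the other nuclear peaks was higher than that of the window peaks in 9 of the 10 libraries, at 6.80 and 7.38 in Col-0. The exception was FL replicate 1, with 2.51 in the windows and 2.24 elsewhere.

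**Figure D2:**
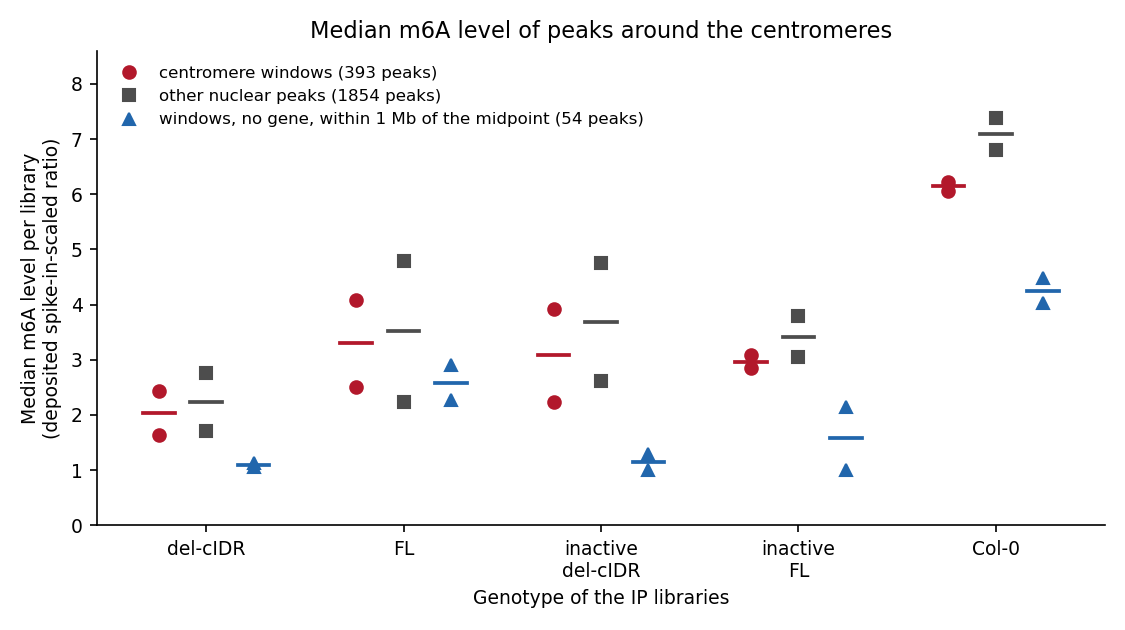
Median m6A level (deposited spike-in-scaled ratio, vertical axis) in each IP library for the 393 window peaks, the 1854 other nuclear peaks and the 54 window peaks in no gene within 1 Mb of the midpoint, by genotype. Each point is a library and each bar the mean of 2; all points of the 4 ALKBH5 lines lie below the Col-0 points of the same set.

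The 54 peaks in no gene within 1 Mb of the midpoint had low levels, and the libraries were ordered differently there. Their median was 1.06 and 1.13 in del-cIDR, 2.91 and 2.27 in FL, 1.3 and 0.997 in inactive del-cIDR, 2.14 and 1.01 in inactive FL, and 4.48 and 4.03 in Col-0. Both FL libraries lay above all libraries of the 3 other lines and below Col-0. Relative to the other nuclear peaks of the same library, however, the log2 ratio was 0.38 in FL replicate 1 and -1.08 in FL replicate 2, and it spread likewise from -1.01 to -2.25 in inactive del-cIDR and from -0.51 to -1.91 in inactive FL. It was -1.37 and -0.59 in del-cIDR and -0.60 and -0.87 in Col-0. With 2 libraries against 2 an exact permutation test of such a ratio cannot give a two-sided p below 0.333.

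Pseudogene peaks were the strongest class. Their median over the 42 peaks was 5.73 in del-cIDR, 6.19 in FL, 6.51 in inactive del-cIDR, 7.08 in inactive FL and 14.6 in Col-0. Peaks in no gene had 1.43, 2.82, 1.58 and 2.17 in the lines in the same order and 4.63 in Col-0, and the 13 peaks on non-coding RNA genes had 0.476, 1.39, 0.575 and 0.668, and 3.46 in Col-0. Levels here are set side by side between peaks as deposited ratios, not per length. Above 20 in both Col-0 libraries were 12 window peaks, 8 of them on pseudogenes.

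Of these 12, 6 belonged to one run. A stretch of chromosome 4, Chr4:5046531-5084466 (TAIR10 coordinates), held 9 peaks that together filled 35038 bases. Of these, 7 lay on the neighbouring pseudogenes AT4G08109, AT4G08112, AT4G08113, AT4G08114, AT4G08115 and AT4G08100, and 2 in no gene. The widest, Chr4:5048975-5058304, lay on AT4G08109 and was also the widest of all members at 9329 bases. Its level was 14.2 and 9.61 in del-cIDR, 11.2 and 26.6 in FL, 12.4 and 21.9 in inactive del-cIDR, 14.5 and 22.9 in inactive FL, and 27.3 and 35.6 in Col-0. The peak on AT4G08115, Chr4:5075167-5079800, had 13.7 and 12.6 in del-cIDR, 10.9 and 30.1 in FL, 12.4 and 25.9 in inactive del-cIDR, 13.9 and 23.6 in inactive FL, and 30.9 and 38.9 in Col-0. The del-cIDR libraries stayed below Col-0 in both peaks, and in the 3 other lines replicate 2 was nearer to Col-0, while replicate 1 was nearer to del-cIDR. Of the 9 peaks, limma called 6 lower in del-cIDR than in Col-0 (66.7%, where 79.8% of all peaks were) and 0 in FL than in Col-0 (where 22.7% of all peaks were; 1 of the 9 had an unadjusted p under 0.05).

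**Figure D3:**
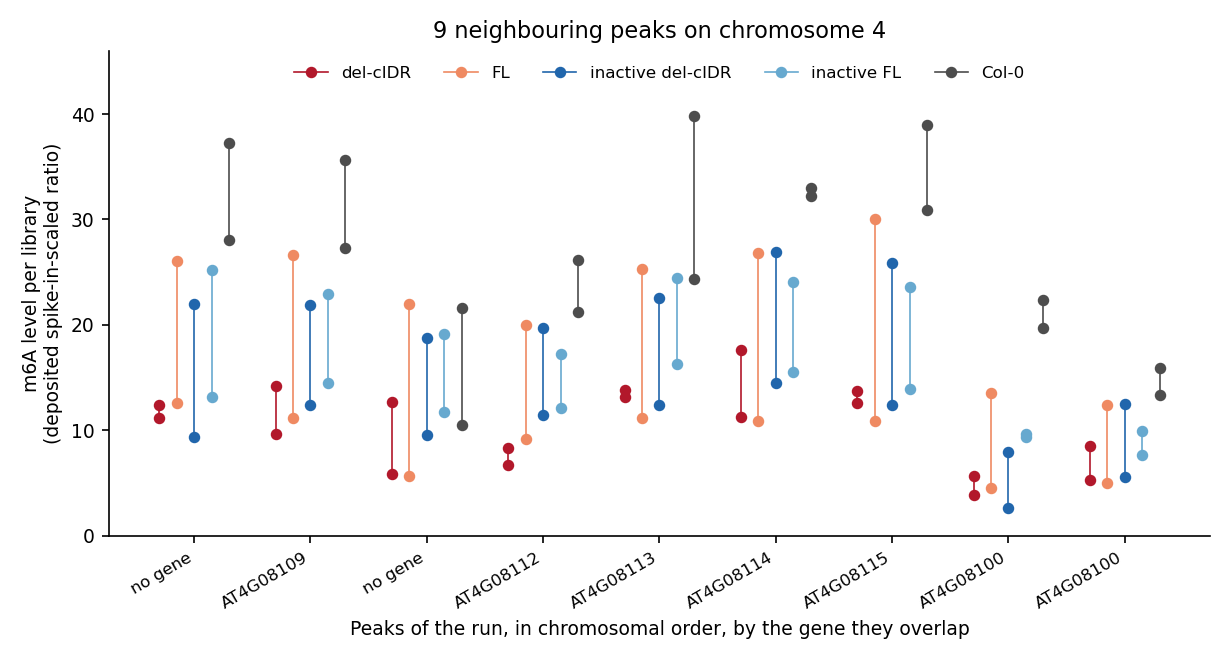
m6A level (deposited spike-in-scaled ratio, vertical axis) of the 9 peaks of the chromosome 4 run, in chromosomal order and named by the gene they overlap. Each pair of joined points is the 2 libraries of a genotype; on AT4G08109 the del-cIDR libraries have 14.2 and 9.61 and the Col-0 libraries 27.3 and 35.6.

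Other strong peaks were spread over the chromosomes. The peak on the pseudogene AT5G25045 had 14.5 and 12 in del-cIDR, 6.10 and 16.2 in FL, 11.8 and 24.5 in inactive del-cIDR, 12.1 and 18.3 in inactive FL, and 22.6 and 24.1 in Col-0. Outside genes, Chr4:3368211-3369366 had 9.52 and 4.19 in del-cIDR, 4.06 and 10.7 in FL, 8.30 and 22.2 in inactive del-cIDR, 8.99 and 11.9 in inactive FL, and 13.7 and 25.4 in Col-0. The weakest members by their mean included UBQ11, a polyubiquitin gene, with 0.123 and 0.157 in del-cIDR, 0.241 and 0.619 in FL, 0.126 and 0.260 in inactive del-cIDR, 0.251 and 0.267 in inactive FL, and 3.26 and 2.61 in Col-0. RDUF1, which encodes a RING-type ubiquitin ligase, had 0.155 and 0.159 in del-cIDR and 2.78 and 2.50 in Col-0. Across the 303 peaks with an expressed host gene, the m6A level and the host's input expression had a Spearman rho of -0.28 in del-cIDR, -0.29 in FL, -0.28 in inactive del-cIDR, -0.27 in inactive FL and -0.33 in Col-0. This is a description across peaks, which share libraries and scaling and are not independent replicates.

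A run on chromosome 5 and one on chromosome 3 had lower levels than the run on chromosome 4. On chromosome 5, 10 peaks in no gene between 11703561 and 11735364 had a median of 1.09 and 0.925 in del-cIDR, 2.73 and 2.54 in FL, 1.3 and 1.14 in inactive del-cIDR, 2.27 and 1.21 in inactive FL, and 5.29 and 4.27 in Col-0. On chromosome 3, 12 peaks between 14192723 and 14228945, of which 4 lay in no gene and others on genes that include the ribosomal RNA gene AT3G41768, had 0.529 and 0.529 in del-cIDR, 1.43 and 1.36 in FL, 0.464 and 0.670 in inactive del-cIDR, 0.738 and 0.738 in inactive FL, and 3.51 and 3.12 in Col-0. The FL libraries were above the libraries of the 3 other lines in both runs. This also held for a run of 11 peaks on chromosome 2 that started at 3606930, with 3.54 and 2.29 in FL, against 2.07 and 1.29 in inactive FL. It did not hold for 11 peaks in no gene from Chr4:3950728, with 3.03 and 2.24 in FL, against 2.59 and 0.644 in inactive FL. Nor did it for 9 peaks in no gene from Chr3:13586769, with 4.79 and 3.01 in FL, against 3.33 and 1.06 in inactive FL. RNA depleted of ribosomal RNA was used for the immunoprecipitation, per the labels' protocols, so values on ribosomal RNA genes come from what remained.

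The windows were set by position, so values on either side of a border are given once. Just inside lay a peak on AT1G30910 with 3.50 ± 0.468 in del-cIDR and 11.5 ± 0.674 in Col-0, and 2 peaks on LHCA4, a light-harvesting protein of photosystem I, with 0.266 ± 0.171 and 0.316 ± 0.0893 in del-cIDR and 3.07 ± 0.574 and 3.24 ± 0.249 in Col-0. Just outside lay peaks on AT4G11560 with 2.52 ± 1.69 in del-cIDR and 6.38 ± 1.67 in Col-0, on AT5G24740 with 0.408 ± 0.103 and 3.49 ± 0.0801, and on RSH1 with 0.291 ± 0.0901 and 3.35 ± 0.908 (SD, n = 2 each).

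Setting del-cIDR against Col-0 asks how the active enzyme without the cIDR segment changes m6A. Both del-cIDR libraries lay below both Col-0 libraries in 376 of the 393 peaks (95.7%), where all peaks gave 98.0%, and limma called 306 lower and 0 higher (316 at an unadjusted p under 0.05). Over all peaks 79.8% were called lower, and the members' share was 77.9%. The median log2 fold change was -1.44 in the windows and -1.52 over all peaks. Protein-coding peaks were called lower in 197 of 251, pseudogene peaks in 34 of 42, non-coding RNA peaks in 12 of 13 and peaks in no gene in 51 of 73. By chromosome the lower calls were 45 of 58, 59 of 79, 56 of 79, 75 of 93 and 71 of 84, in number order. The 4 comparisons with Col-0 share the same control libraries, so their counts are not independent of one another.

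The peaks with the largest change against Col-0 in del-cIDR were weak or absent there. The peak in no gene at Chr3:13209333-13209559 was listed at 0 in both del-cIDR libraries and had 1.67 and 1.05 in FL, 0.393 and 0.560 in inactive del-cIDR, 0.739 and 0.165 in inactive FL, and 6.87 and 5.67 in Col-0 (adjusted p = 2.42e-32). Of the pseudogene AT2G10310 the peak had 0.210 and 0.0657 in del-cIDR, against 5.36 and 4.42 in Col-0 (log2 fold change -3.00). AT3G28550, a protein-coding gene, had 0.214 and 0.536 in del-cIDR, against 7.21 and 5.07 in Col-0 (-2.87). These values lie near or below the pseudocount of 0.542 that was added before taking logs, so a log2 change of such peaks moves with that choice. AT2G07696 in the mitochondrion-like stretch of chromosome 2 had 0.0973 and 0.231 in del-cIDR, 0.181 and 0.743 in FL, 0.172 and 0.333 in inactive del-cIDR, 0.463 and 0.147 in inactive FL, and 4.53 and 3.99 in Col-0. Its 8 transgenic libraries all lay below the 2 of Col-0, and it was among the most lowered peaks in each of the 4 comparisons. Peaks on the plant's own mitochondrial genome had medians of 0.291 in del-cIDR, 0.784 in FL, 0.385 in inactive del-cIDR, 0.430 in inactive FL and 3.40 in Col-0, and whether reads were shared with them was not tested. Leaving out Col-0 replicate 1 gave 141 calls, leaving out Col-0 replicate 2 gave 132, leaving out del-cIDR replicate 2 gave 119, and centring each library on its median gave 1. With only peaks at or above the median level it was 104.

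The full-length enzyme, FL against Col-0, gave fewer calls. Both FL libraries lay below both of Col-0 in 298 of 393 peaks (75.8%), where all peaks gave 82.2%, and above both in 2, where all peaks gave 0.131%. limma called 95 lower and 0 higher (170 at an unadjusted p under 0.05), a share of 24.2%, against 22.7% of all peaks. The median log2 fold change was -0.95 in the windows and -1 over all peaks, but -0.62 for the 54 peaks in no gene within 1 Mb of the midpoint. The peak on VPS2.1, a subunit of the membrane-sorting complex ESCRT-III, had 0.804 and 2.34 in FL, against 7.04 and 8.41 in Col-0 (-2.06). SYP41, a syntaxin of the trans-Golgi network, had 0.508 and 1.09 in FL, against 4.99 and 4.18 in Col-0 (-1.97, adjusted p = 6.11e-06). On PSAF, a subunit of photosystem I, the peak had 0.555 and 0.798 in FL, against 4.21 and 4.18 in Col-0 (-1.97). In all 3 genes the FL libraries lay well below those of Col-0. Without a Col-0 library it was 51 (replicate 1) or 56 (replicate 2), and without an FL library 55 (replicate 1) or 260 (replicate 2, 4 higher and 256 lower). It was 52 without a trend in the prior variance, 0 after median-centring and 0 with only peaks at or above the median level.

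In inactive del-cIDR against Col-0, the share of peaks called lower differed with the distance from the midpoint and with the class of peak. Both inactive del-cIDR libraries lay below both of Col-0 in 324 of 393 peaks (82.4%), where all peaks gave 81.0%. limma called 126 of 393 lower and 0 higher (187 at an unadjusted p under 0.05), a share of 32.1%, against 24.1% of all peaks and 20.8% of the other nuclear peaks. Within 1 Mb of the midpoint it was 64 of 106 (60.4%) with a median log2 fold change of -1.39, between 1 and 2 Mb 22 of 85 (25.9%), and from 2 Mb to the border 40 of 202 (19.8%) with -0.92. Peaks of like classes outside the windows also had large shares: of those in no gene 21 of 38 were called lower (55.3%), against 38 of 73 in the windows (52.1%), and of those on non-coding RNA genes 13 of 20 (65.0%), against 11 of 13 in the windows. Of the peaks on the organelle genomes, 18 of 21 mitochondrial and 22 of 23 plastid ones were called lower. The peaks near the midpoint also had lower levels, as given above for those in no gene, and with only peaks at or above the median level 0 of the members were called; the part of the level in these shares was not tested. On the pseudogene AT5G29975 the peak was listed at 0 and had 0.164 in inactive del-cIDR, against 7.94 and 2.36 in Col-0 (adjusted p = 1.17e-28). The pseudogene AT2G10180 had 0.157 and 0.404 in inactive del-cIDR, against 5.86 and 3.69 in Col-0 (-2.68), and ERD5, which encodes the proline dehydrogenase of mitochondria, was listed at 0 and had 0.337, against 4.05 and 3.33 in Col-0. Col-0 replicates also lay far apart in the peak in no gene at Chr4:3953490-3953986, which had 0.423 and 0.387 in inactive del-cIDR, against 2.75 and 11.7 in Col-0 (-2.74). Omitting Col-0 replicate 1 left 79 calls, omitting Col-0 replicate 2 left 84, and median-centring left 0.

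Inactive FL lay below Col-0 in both libraries in 350 of 393 peaks (89.1%), where all peaks gave 91.4%, and above it in both in 2, where all peaks gave 0.0873%. limma called 114 of 393 lower and 0 higher (29.0%; 176 at an unadjusted p under 0.05), where 21.8% of all peaks and 18.9% of the other nuclear peaks were called. Within 1 Mb of the midpoint 50 of 106 were called lower (47.2%). Of the peaks in no gene 20 of 38 outside the windows were called lower (52.6%), against 30 of 73 in the windows (41.1%). The other classes had larger shares in the windows. On non-coding RNA genes it was 12 of 20 outside (60.0%), against 12 of 13 (92.3%). On pseudogenes it was 0 of 10 outside, against 9 of 42 (21.4%), and on protein-coding genes 291 of 1693 (17.2%), against 60 of 251 (23.9%). Peaks on 2 or more genes were the exception, with 28 of 93 outside (30.1%), against 3 of 14 (21.4%). On the organelle genomes 17 of 21 mitochondrial and 18 of 23 plastid peaks were called lower. AGP9, an arabinogalactan protein of the cell wall, had 0.597 and 0.298 in inactive FL, against 4.25 and 6.29 in Col-0. AT1G40104 carries several peaks near the middle of the chromosome 1 window, and the one at Chr1:15083671-15084052 had 0.597 and 0.141 in inactive FL, against 5.64 and 4 in Col-0. Both genes were below Col-0 in each inactive FL library. Only 61 calls were made when Col-0 replicate 1 was omitted and 68 when Col-0 replicate 2 was, with 75 when no trend was fitted, and 0 after median-centring or with only peaks at or above the median level.

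**Figure D4:**
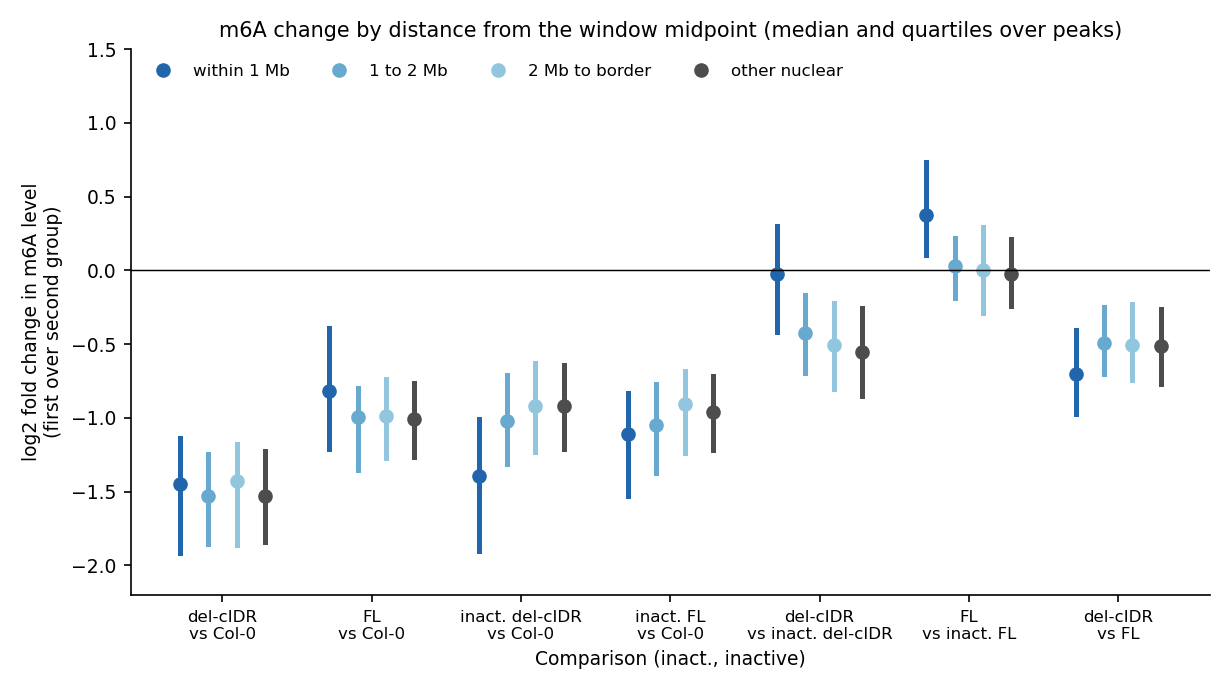
log2 fold change in m6A level (vertical axis, first over second group) for 7 comparisons (horizontal axis), with a point at the median and a line over the quartiles of the peaks within 1 Mb of the window midpoint, at 1 to 2 Mb, from 2 Mb to the border, and of the other nuclear peaks. All medians against Col-0 are below 0; within 1 Mb the median is -1.45 in del-cIDR and -0.82 in FL.

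Active and inactive forms of the enzyme, in separate lines, differed in few single peaks. For del-cIDR against inactive del-cIDR limma called 2 of 393 lower and 0 higher, where 0.175% of all peaks were called lower. The peak at Chr4:2994467-2994731, in no gene, had 0.0694 and 0.136 in del-cIDR, against 0.524 and 1.14 in inactive del-cIDR (adjusted p = 0.0262). The peak at Chr5:8959229-8959622, which overlaps 2 genes, had 0.292 and 0.206 in del-cIDR, against 1.78 and 4.06 in inactive del-cIDR (adjusted p = 0.0367). The median log2 fold change was -0.36 in the windows and -0.51 over all peaks, and it was -0.03 within 1 Mb of the midpoint. Both del-cIDR libraries were lower in 113 of 393 peaks (28.8%), where all peaks gave 40.0%, and both were higher in 17, where all peaks gave 1.27%; 15 of those 17 lay within 1 Mb of the midpoint. These 17 are ranks of 2 against 2 libraries, and limma called 0 of them. Both calls were lost when del-cIDR replicate 2, inactive del-cIDR replicate 2 or either Col-0 library was omitted, and without a trend in the prior variance; without FL replicate 1 or 2 there were 9.

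FL against inactive FL had positive medians near the midpoints and in some classes of peaks outside the windows. Both FL libraries were above both of inactive FL in 37 of the 106 peaks within 1 Mb (34.9%) and in 23 of the 54 in no gene there (42.6%), where all peaks gave 12.1% and the other nuclear peaks 9.44%. Over all 393 window peaks both were higher in 76 (19.3%). From 2 Mb to the border both were higher in 31 of 202 (15.3%), and on window pseudogenes in 4 of 42 (9.52%). Both were lower in 24 of the 393 (6.11%), where all peaks gave 4.71%. The median log2 fold change was 0.10 in the windows, -0.01 over all peaks and 0.54 for the 54 peaks in no gene within 1 Mb. Outside the windows it was 0.27 for the 38 peaks in no gene (27 positive) and 0.36 for the 20 on non-coding RNA genes (17 positive), and it was 0.27 for the 21 mitochondrial and 0.38 for the 23 plastid peaks. Only 2 peaks were called, both higher, where 0.218% of all peaks were. On AT1G40104 the peak at Chr1:15083671-15084052 had 5.28 and 2.63 in FL, against 0.597 and 0.141 in inactive FL (log2 fold change 2.29, adjusted p = 0.00196). On the non-coding RNA gene AT2G05295 the peak had 1.42 and 1.49 in FL, against a listed 0 and 0.282 in inactive FL (adjusted p = 6.74e-09). Without FL replicate 1 there were 4 calls, without FL replicate 2 there were 6 (1 of them lower), without inactive FL replicate 1 there were 8, without inactive FL replicate 2 there was 1, and without a trend in the prior variance or after median-centring there were 0.

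When del-cIDR was set against FL, the called peaks lay mostly near the window midpoints. limma called 10 of 393 lower (2.54%) and 0 higher, where 0.873% of all peaks and 8 of the 1854 other nuclear peaks (0.432%) were called lower. Of the 10, 9 lay within 1 Mb of the midpoint and 7 were in no gene. Both del-cIDR libraries lay below both of FL in 66 of the 106 peaks within 1 Mb (62.3%), where all peaks gave 35.7% and the other nuclear peaks 33.3%. Both were higher in 3 of the 393, where all peaks gave 0.48%. The median log2 fold change was -0.70 within 1 Mb and -0.52 over all peaks. It was also -0.70 for the 38 other nuclear peaks in no gene, of which 2 were called lower (5.26%), against 7 of the 73 window peaks in no gene (9.59%). Of the 21 mitochondrial peaks, 2 were called lower (9.52%).

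Several of these peaks were neighbours. On chromosome 5, Chr5:11703561-11704463 had 0.864 and a listed 0 in del-cIDR, against 2.94 and 2.79 in FL (adjusted p = 0.000776), and Chr5:11731004-11731204 had 0.353 and 0.386 in del-cIDR, against 2.53 and 2.99 in FL (-1.85 on the log2 scale, adjusted p = 0.00102). On chromosome 3, Chr3:13590162-13591253 had 0.296 and 0.311 in del-cIDR, against 1.86 and 2.05 in FL (-1.56, 0.000776), and Chr3:13591708-13592499 had 0.871 and 0.360 in del-cIDR, against 2.43 and 2.58 in FL (-1.43, 0.0416). In these the del-cIDR libraries did not overlap those of FL. Beside the ribosomal RNA gene, Chr3:14193775-14194913 had 0.799 and 0.110 in del-cIDR, against 3.72 and 2.35 in FL (-1.91, 0.000776). The peak on AT1G40104 at Chr1:15082495-15082866 had 0.434 and a listed 0 in del-cIDR, against 1.72 and 1.34 in FL (0.00452), and that on AT2G10310 had 0.210 and 0.0657, against 0.790 and 0.962 (-1.07, 0.0264). On AT2G05295, near the mitochondrion-like AT2G07696, both del-cIDR libraries were listed at 0, against 1.42 and 1.49 in FL (adjusted p = 2.17e-13). Omitting FL replicate 1 gave 52 calls, omitting del-cIDR replicate 1 gave 5 and omitting del-cIDR replicate 2 gave 6, with 0 without a trend in the prior variance, after median-centring, or with only peaks at or above the median level.

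**Figure D5:**
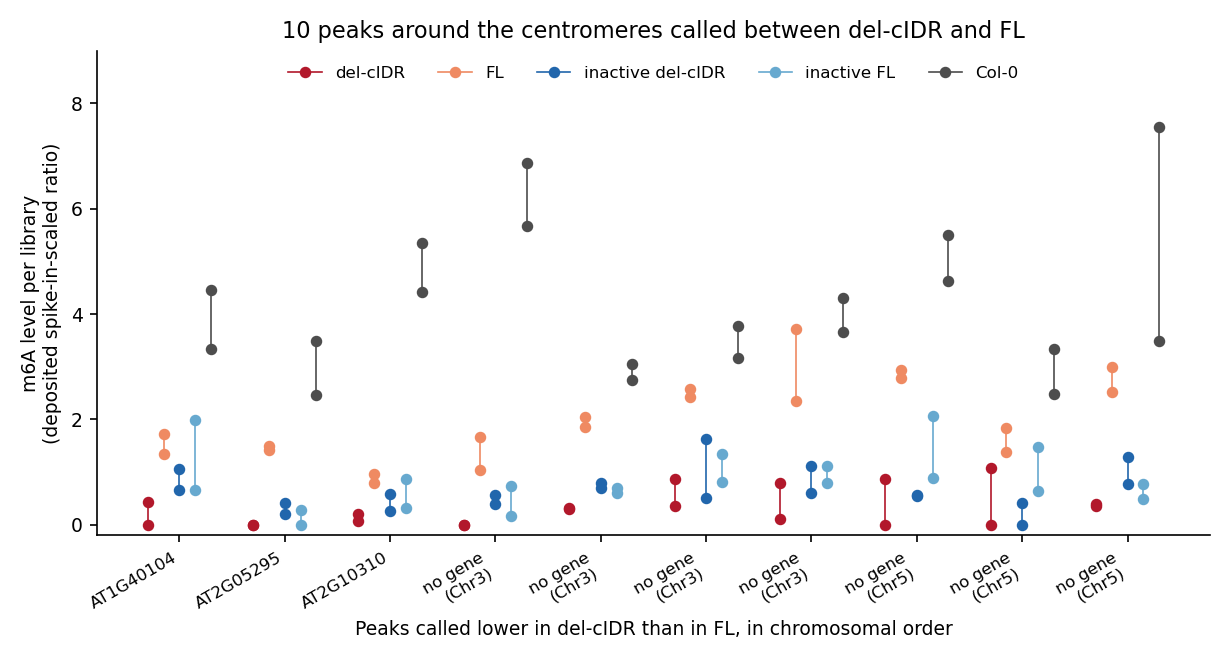
m6A level (deposited spike-in-scaled ratio, vertical axis) of the 10 window peaks called lower in del-cIDR than in FL, in chromosomal order, with the 2 libraries of each genotype joined. On AT2G05295 both del-cIDR libraries are at 0 and the FL libraries have 1.42 and 1.49.

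The difference between the activity effects of the forms (del-cIDR over inactive del-cIDR, minus FL over inactive FL) was called in 3 window peaks, all lower, where 0.175% of all peaks were. They were AT2G05295, Chr3:13209333-13209559 and Chr5:11731004-11731204, all of which were also called lower in del-cIDR than in FL. At Chr5:11731004-11731204 the levels were 0.353 and 0.386 in del-cIDR, 2.53 and 2.99 in FL, 1.3 and 0.774 in inactive del-cIDR, 0.493 and 0.773 in inactive FL, and 7.56 and 3.49 in Col-0. There del-cIDR lay below inactive del-cIDR in both libraries and FL above inactive FL in both, although neither of these 2 comparisons alone passed the test at this peak (adjusted p = 0.421 and 0.0549). Without FL replicate 1 the count for this difference was 10, and it was 1 without del-cIDR replicate 1, inactive del-cIDR replicate 2 or inactive FL replicate 2.

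A few peaks around the centromeres had levels at or above Col-0. A positive log2 fold change of del-cIDR over Col-0 was found in 5 of 393 window peaks and in 0 of the 1854 other nuclear peaks, and none was called. In the other lines such peaks also lay outside the windows. For FL it was 13 window peaks and 9 other nuclear peaks, for inactive del-cIDR 8 and 30, and for inactive FL 10 and 12. None of these was called higher. At Chr3:12670158-12670493, which overlaps 2 genes, the level was 14.2 and 10.6 in del-cIDR, 22.2 and 7.25 in FL, 11.6 and 4.29 in inactive del-cIDR, 14.1 and 4.91 in inactive FL, and 7.36 and 5.22 in Col-0 (adjusted p = 0.119 for del-cIDR). At Chr2:5799617-5799866, in no gene, it was 9.61 and 6.93 in del-cIDR, 21.5 and 5.73 in FL, 14 and 3.94 in inactive del-cIDR, 13.3 and 4.71 in inactive FL, and 5.42 and 4.94 in Col-0 (0.299). On the pseudogene AT2G12510 it was 5.57 and 7.09 in del-cIDR, against 4.52 and 4.32 in Col-0 (0.427). In all 3 peaks both del-cIDR libraries were above both Col-0 libraries, and in the first 2 replicate 1 of the 3 other lines was far above Col-0 while replicate 2 was near it or below.

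The transcripts that carry these peaks were measured in the input libraries. Input expression is a deposited signal whose ERCC spike-in controls sum to nearly the same value in every library, from 109313 to 110569. On that scale most host genes rose: of 279 hosts measured, 217 were called higher and 10 lower in del-cIDR than in Col-0, where 65.5% of all features were called higher and 1.85% lower. In FL against Col-0, 207 were higher and 7 lower, where 75.5% and 1.47% of all features were. In inactive del-cIDR 92 were higher and 53 lower (all features 32.4% and 7.84%), and in inactive FL 85 higher and 19 lower (16.9% and 3.12%). Of the same hosts, 179 were higher and 12 lower in del-cIDR than in inactive del-cIDR (all features 28.7% and 2.76%), and 160 higher and 6 lower in FL than in inactive FL (58.1% and 0.751%). All features together moved by a median log2 of 0.56 in del-cIDR, 0.67 in FL, 0.31 in inactive del-cIDR and 0.22 in inactive FL, and the 279 hosts by 0.41, 0.34, 0.09 and 0.11. After each library was centred on its median, the hosts split into 25 higher and 122 lower in del-cIDR, 24 and 216 in FL, 37 and 147 in inactive del-cIDR, and 15 and 101 in inactive FL, so the direction of most of these calls rests on the spike-in scale. Without Col-0 replicate 2 the calls in inactive FL numbered 66.

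The pseudogene hosts were called higher more often than lower in all 4 lines. Of 33 measured, 30 rose in FL against Col-0 (median log2 1.08), 27 in del-cIDR (0.60), 17 in inactive del-cIDR with 3 lower (0.38) and 23 in inactive FL with 1 lower (0.50). Over all features 75.5%, 65.5%, 32.4% and 16.9% were called higher in these lines, in the same order, with medians of 0.67, 0.56, 0.31 and 0.22. After median-centring the counts were 13 higher and 6 lower in FL, 5 higher and 4 lower in del-cIDR, 6 higher and 9 lower in inactive del-cIDR, and 6 higher and 1 lower in inactive FL. The median signal over these hosts was 217 and 201 in del-cIDR, 251 and 247 in FL, 153 and 139 in inactive del-cIDR, 156 and 151 in inactive FL, and 109 and 112 in Col-0. Both active lines lay above both inactive lines, and all 4 above Col-0. Over the 236 coding hosts it was 608 and 627 in del-cIDR, 630 and 627 in FL, 513 and 506 in inactive del-cIDR, 502 and 527 in inactive FL, and 514 and 472 in Col-0. In del-cIDR against FL, 16 of the 33 pseudogene hosts were lower and 5 higher, where 20% of all features were lower and 10.6% higher. After median-centring 12 of the 33 were lower and 7 higher. Of the 4050 transposable element features, which are no hosts, 2365 (58.4%) rose in del-cIDR and 3397 (83.9%) in FL against Col-0. In inactive del-cIDR 1386 (34.2%) rose and in inactive FL 684 (16.9%). Of all features 65.5%, 75.5%, 32.4% and 16.9% rose in these lines, in the same order. In del-cIDR against FL, 1498 of the transposable element features (37.0%) were lower and 94 (2.32%) higher.

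Individual pseudogenes followed different patterns. AT4G04410 had a signal of 2899 and 2817 in del-cIDR, 1065 and 1077 in FL, 1215 and 1145 in inactive del-cIDR, 979 and 987 in inactive FL, and 550 and 548 in Col-0, so del-cIDR was highest (2.36 on the log2 scale over Col-0). AT2G10310 had 225 and 258 in del-cIDR, 544 and 532 in FL, 260 and 264 in inactive del-cIDR, 206 and 282 in inactive FL, and 137 and 139 in Col-0, and AT2G10180 had 318 and 412 in del-cIDR, 752 and 782 in FL, and 243 and 230 in Col-0. FL was highest for both (1.91 and 1.67 over Col-0). Within the chromosome 4 run, AT4G08114 had 203 and 201 in del-cIDR, 293 and 234 in FL, 153 and 123 in inactive del-cIDR, 233 and 184 in inactive FL, and 108 and 144 in Col-0. Its expression rose in FL (1.03, adjusted p = 1.2e-08) and in del-cIDR (0.67, 6.7e-05). On the other side, ERD5 had 3317 and 3543 in del-cIDR, 4498 and 4292 in FL, 1747 and 1689 in inactive del-cIDR, 3353 and 3640 in inactive FL, and 5740 and 5699 in Col-0, and fell in each line. Of the 303 peaks with a measured host, 240 were called lower in m6A in del-cIDR than in Col-0, and the host of 188 of these had risen. The host of 50 peaks without an m6A call had also risen, and 77.8% of the 279 hosts were called higher. In FL it was 55 of 71 (74.2% of hosts higher), in inactive del-cIDR 41 of 81 (33.0%) and in inactive FL 31 of 78 (30.5%). A link between the 2 changes was not tested. The denominator of the m6A ratio is not stated, so a change in the ratio and a change in the transcript cannot be told apart from these values alone.

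Genes that act at centromeres and in their silencing were looked up in the same input libraries, with directions on the spike-in scale, and none of them carried a window peak. MOM1, HDA6 and ECT3 carried 1 peak each outside the windows. The list on heterochromatin silencing had 18 genes, among them IBM1 (increase in bonsai methylation 1), so not every gene in it promotes silencing. Of these 18, 16 rose (88.9%) and 1 fell in del-cIDR against Col-0. In FL 14 rose (77.8%) and 2 fell, where 65.5% of all features rose in del-cIDR and 75.5% in FL. The list's median log2 change was 0.51 in del-cIDR and 0.42 in FL, against 0.56 and 0.67 over all features. DDM1, a chromatin remodeller that keeps transposons methylated, had 139 ± 30.9 in del-cIDR, 131 ± 10.3 in FL, 159 ± 16.8 in inactive del-cIDR, 83.2 ± 11.5 in inactive FL and 53.4 ± 7.21 in Col-0 (SD, n = 2 each), and rose in each line. The signal of MET1, the methyltransferase that maintains CG methylation, was 614 ± 49.3 in del-cIDR, against 348 ± 12 in Col-0 (a log2 change of 0.81 with adjusted p = 9.47e-12). The linker histone gene H1.1 fell in FL to 1116 ± 110, against 1512 ± 49.0 in Col-0 (-0.44, 3.96e-08), and in inactive del-cIDR to 884 ± 34.3 (-0.77, 1.68e-15). It also fell in inactive FL, to 1252 ± 22.3 (-0.27, 0.00101). In inactive del-cIDR 7 of the 18 rose (38.9%) and 3 fell, and in inactive FL 3 rose (16.7%) and 1 fell, where 32.4% and 16.9% of all features rose. After median-centring the 18 split into 2 higher and 4 lower in del-cIDR, 0 and 11 in FL, 5 and 6 in inactive del-cIDR, and 0 and 4 in inactive FL.

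The list on RNA-directed DNA methylation had 8 genes, among them ROS1 (repressor of silencing 1), so not every gene in it promotes silencing. Of these 8, 7 rose in del-cIDR, 6 in FL, 5 in inactive del-cIDR and 4 in inactive FL, and none fell. These are 87.5%, 75%, 62.5% and 50% of the list, where 65.5%, 75.5%, 32.4% and 16.9% of all features rose. NRPD1, the largest subunit of RNA polymerase IV, had 212 ± 12.4 in del-cIDR and 181 ± 9.97 in FL, against 101 ± 7.55 in Col-0. CENH3 had low signal, 22.6 ± 5.91 in del-cIDR and 26.4 ± 0.240 in FL, against 7.64 ± 4.63 in Col-0 (changes of 1.04 and 1.23 on the log2 scale, with adjusted p = 0.00298 and 0.000424). Of the 3 centromere and kinetochore genes, 2 rose in del-cIDR, 3 in FL, 1 in inactive del-cIDR and 0 in inactive FL, where 65.5%, 75.5%, 32.4% and 16.9% of all features did. After median-centring 0 of the 3, CENH3 included, were called higher in any line against Col-0, and 1 was called lower in each of del-cIDR, FL and inactive FL. Of 6 m6A writer genes, 4 rose in del-cIDR (66.7%) and 5 in FL (83.3%), where 65.5% and 75.5% of all features did, and in inactive del-cIDR 1 fell. The reader gene ECT2 had 6304 ± 184 in del-cIDR, 3987 ± 15.7 in inactive del-cIDR, 5449 ± 161 in inactive FL and 6979 ± 13.5 in Col-0, and fell in these 3 lines. The eraser ALKBH9B rose in all 4 lines, to 338 ± 30.6 in del-cIDR and 389 ± 4.42 in FL, against 219 ± 5.14 in Col-0. After median-centring none of the writer, eraser and reader genes was called higher in any line against Col-0. Of the 6 writers, 3 were then called lower in del-cIDR, 6 in FL, 6 in inactive del-cIDR and 2 in inactive FL. Of the 4 readers it was 3, 4, 4 and 2, and of the 2 erasers 1 in each line. Among the RNA-directed DNA methylation genes 1 was higher and 2 lower in del-cIDR. In FL 6 of them were lower, in inactive del-cIDR 2 and in inactive FL 1, with 0 higher in these 3 lines.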

How the data were processed

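The m6A table gives, per peak and IP library, a ratio that the authors deposited already scaled to the m6A spike-in. The expression table gives, per gene, transposable element or spike-in and input library, a signal that the authors deposited on a scale common to the ERCC controls. Per the submitters' processing notes the tools were fastp, HISAT2 and SAMtools, then Picard and MACS2, with featureCounts and bedtools, and the build was TAIR10. The denominator of the ratio, peak merging and the treatment of multiply mapped reads are not given in the sources used here. Libraries were grouped by the genotype and library type of the labels.

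With spike-in features set aside, 2291 peaks and 30613 expression features remained. A peak was placed on a gene that covered at least 50% of its width in the RefSeq gene table of TAIR10.1, used for names only, without regard to strand. Values were analysed as log2(value + pseudocount), with pseudocounts of 0.542 (m6A) and 6.94 (expression), each the value that 5% of the entries above 0 fall under. A filter on values at or above it in 2 libraries removed 0 features. For each table limma 3.58.1 (R 4.3.3) estimated the 5 genotype means from 10 libraries, letting the prior variance follow a trend with the mean level, and tested 8 contrasts for m6A and 7 for expression, two-sided. Calls required a Benjamini-Hochberg adjusted p under 0.05, taken over the whole table. The procedure was tested on simulated data. Since the values are not counts, no counting interval can be given. Peaks were named by a rule on size of change, level, width and distance to the border, and by smallest p where few were called; the members of small counts, the neighbouring runs and the peaks at or above Col-0 were named after their values were seen. The members and gene lists were chosen with earlier results of these data known. Alternatives were a pseudocount 0.5 times as large, only features at or above the median mean, median-centred libraries, no trend, a replicate block, and leaving out each library. Figures used matplotlib 3.10.9 (Python 3.11.15).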

Additional observations from a re-analysis of the deposited data

Results flagged for a closer look

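The difference between the forms in active over inactive line (del-cIDR over inactive del-cIDR, minus FL over inactive FL) was called by limma at 3 peaks. Each genotype is a separate line, so an effect of enzyme activity cannot be told apart from a difference between single lines. On AT2G05295 (Chr2:3402893-3403277) the difference was -2.22 on the log2 scale: both del-cIDR libraries were listed at 0, FL had 1.42 and 1.49, inactive del-cIDR 0.423 and 0.198, inactive FL a listed 0 and 0.282, and Col-0 3.50 and 2.46. At Chr3:13209333-13209559, in no gene, it was -1.88, and at Chr5:11731004-11731204, in no gene, -2.27. Values at or near 0 make the size of these differences depend on the pseudocount. AT2G05295 lies near AT2G07696 in the mitochondrion-like stretch of chromosome 2, and whether reads were shared with the mitochondrial genome was not tested. Without a trend in the prior variance, after median-centring or with only peaks at or above the median level, 0 peaks were called for this difference.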

How the results depend on the processing

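Counts of called window peaks, given for del-cIDR, FL, inactive del-cIDR and inactive FL against Col-0, depended on scale and level. With only features at or above the median mean they were 104, 0, 0 and 0, after median-centring 1, 0, 0 and 0, and without a trend 308, 52, 98 and 75. For del-cIDR against inactive del-cIDR, FL against inactive FL, del-cIDR against FL and the difference between the activity effects, each of these 3 alternatives gave 0, and a pseudocount 0.5 times as large gave 4, 2, 11 and 3. In the fit restricted by level fewer peaks were tested; for the others the cause was not tested. Leaving out each library in turn gave 119 to 339 calls for del-cIDR against Col-0, 51 to 260 for FL, 79 to 171 for inactive del-cIDR, 61 to 164 for inactive FL, 0 to 9 for del-cIDR against inactive del-cIDR (without del-cIDR replicate 1 its 1 call was higher), 1 to 8 for FL against inactive FL, 5 to 52 for del-cIDR against FL and 1 to 10 for the difference between the activity effects. A group left with 1 library is assumed to vary like the others.

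Host expression calls after median-centring numbered 147 in del-cIDR, 240 in FL, 184 in inactive del-cIDR and 116 in inactive FL against Col-0 and 200 in FL against inactive FL, now mostly lower, and 81 in del-cIDR against inactive del-cIDR. Without a trend they were 33 in inactive FL against Col-0, 94 in FL against inactive FL and 69 in del-cIDR against FL. Leaving out each library gave 66 to 106 for inactive FL against Col-0 and 91 to 137 for del-cIDR against FL, with the balance turned to lower without del-cIDR replicate 2 (96) or FL replicate 2 (92).

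Among single peaks, none of them called with all libraries, the log2 fold change turned its sign when 1 library was left out. Against Col-0 it ranged from -0.12 to 1.28 for Chr2_5799617_5799866 in inactive FL, from -0.35 to 1.34 for that peak in inactive del-cIDR, from -0.31 to 1.12 for Chr3_12670158_12670493 in inactive FL and from -0.12 to 0.50 for Chr5_13742133_13742589 in inactive del-cIDR. For Chr4_3056047_3056266 it ranged from -1.89 to 0.14 in FL against inactive FL and from -0.14 to 1.89 for the difference between the activity effects, and for Chr4_6088160_6088566 from -0.40 to 1.8 in del-cIDR against FL.

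Same-numbered libraries were treated as unpaired, since the labels give no shared source and not every pair of genotypes had correlated deviations from the group means over 0.1. In m6A all 6 pairs among FL, inactive del-cIDR, inactive FL and Col-0 were over 0.1 (0.117 to 0.351), while the 4 pairs with del-cIDR were at -0.226 to -0.117; in expression 1 of 10 pairs was over 0.1. With a replicate block the counts were 311, 106, 129 and 119 against Col-0, then 2, 3, 12 and 3, and for host expression 228, 214, 145 and 103, then 189, 167 and 123. The depth behind the ratios is unknown, so how far it limits these counts cannot be given.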
